A study of Mus musculus with 6 samples.

Results

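Interferon-stimulated genes other than the immunity-related and guanylate-binding GTPase families were followed across tumour-infiltrating CD8 T cells of male and female mice. The list holds 35 genes of the 15601 in the deposited count table, and the level of each was taken per deposited cell cluster and per library. The members were listed by name, with earlier results of these data known. Current symbols matched 31 of them in the table, and Ifi206, Ifi208, Ifi209 and Ifi213 stood under the older symbols Gm4955, Pydc3, Pyhin1 and Pydc4. Mx1, whose product is a dynamin-like GTPase, is on the list all the same.

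The samples came from male and female wild-type C57BL/6 mice, 3 libraries of each sex. The mice carried subcutaneous MB49 tumours, a mouse urothelial carcinoma cell line, and had been given 500000 tumour cells at 6 weeks of age (the labels also give 6 to 8 weeks). Live CD3+ CD8+ CD4- cells were sorted on day 10, and single-cell libraries were made from transcript 3′ ends. The labels call the libraries biological replicates and do not say whether tumours were pooled. No sample had an interferon treatment, a receptor knockout or a healthy tissue, so the comparisons are between clusters and between sexes.

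Interferons bind receptors at the cell surface and activate Janus kinases. Type I interferon leads to a complex that includes STAT2 and IRF9 and binds the interferon-stimulated response element (ISRE) in promoters. The genes switched on encode antiviral effectors, nucleic acid sensors and regulators of the response itself. In T cells they form a programme that can be on in a small set of cells within a tumour.

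The promoters of the genes on which the results turn are shown first, because the ISRE is the letter pattern through which many of these genes are known to be induced. Each line gives the 250 bases before the RefSeq start (build GRCm38.p6), read 5′ to 3′ on the strand of the gene, with the ISRE letters searched (TTTC, any pair of bases, TTTC) in capitals where they occur on either strand. Ifit1 (chr19:34640639-34640888, plus strand), Ifit3b (chr19:34607707-34607956, plus), Rsad2 (chr12:26456453-26456702, minus) and Ifit3 (chr19:34583279-34583528, plus) are the members most restricted to cluster 9. Isg15 (chr4:156200819-156201068, minus) was outside the rule for them, and Irf9 (chr14:55603735-55603984, plus, the first of its RefSeq starts) was the least restricted.
Ifit1: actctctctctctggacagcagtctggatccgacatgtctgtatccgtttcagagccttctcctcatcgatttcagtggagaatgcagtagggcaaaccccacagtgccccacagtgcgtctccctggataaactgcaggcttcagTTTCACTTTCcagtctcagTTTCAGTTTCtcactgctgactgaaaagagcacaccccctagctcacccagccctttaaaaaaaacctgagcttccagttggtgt
Ifit3b: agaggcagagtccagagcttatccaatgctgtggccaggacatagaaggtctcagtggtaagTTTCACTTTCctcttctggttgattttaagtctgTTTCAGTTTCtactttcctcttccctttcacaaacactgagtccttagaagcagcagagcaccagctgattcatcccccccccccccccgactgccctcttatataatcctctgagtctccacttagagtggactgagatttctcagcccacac
Rsad2: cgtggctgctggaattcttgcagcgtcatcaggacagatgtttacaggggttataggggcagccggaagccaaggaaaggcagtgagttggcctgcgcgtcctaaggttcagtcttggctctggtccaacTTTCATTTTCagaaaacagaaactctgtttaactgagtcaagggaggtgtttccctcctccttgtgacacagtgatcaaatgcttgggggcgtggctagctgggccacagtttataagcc
Ifit3: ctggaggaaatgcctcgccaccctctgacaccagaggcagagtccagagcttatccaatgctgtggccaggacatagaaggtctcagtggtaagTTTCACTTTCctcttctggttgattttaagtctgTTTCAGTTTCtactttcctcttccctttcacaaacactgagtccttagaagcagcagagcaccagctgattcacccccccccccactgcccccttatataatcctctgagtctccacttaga
Isg15: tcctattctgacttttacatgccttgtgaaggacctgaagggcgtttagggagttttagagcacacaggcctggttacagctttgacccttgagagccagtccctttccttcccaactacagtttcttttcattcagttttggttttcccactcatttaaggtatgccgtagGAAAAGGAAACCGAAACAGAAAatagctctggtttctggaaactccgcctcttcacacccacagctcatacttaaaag
Irf9: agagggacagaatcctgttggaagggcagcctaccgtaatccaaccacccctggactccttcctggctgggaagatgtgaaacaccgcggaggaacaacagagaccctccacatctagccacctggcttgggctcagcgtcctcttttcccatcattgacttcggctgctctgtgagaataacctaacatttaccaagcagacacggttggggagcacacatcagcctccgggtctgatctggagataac
Ifit3 and Ifit3b carried the same pair of matches at the same spacing, nearest at 122 and 154 bases before the start. In Isg15 the 3 matches overlap one another and lie on the opposite strand. The windows searched ran from 250 bases before to 50 bases after each start. In them, 19 of the 28 members with a RefSeq promoter entry held the pattern, against 3.99% of 27025 genes. Of the 14 members with the higher ratio of cluster 9 to the next cluster, 10 held the ISRE pattern, and of the 14 with the lower ratio, 9 did. A match is a run of letters and was not tested for binding. Entries for Mx1, Usp18, Ifi27l2a, Zbp1, Rtp4, Dhx58 and Parp14 were not used here.

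The table held 26698 cells and 295211042 UMIs (unique molecular identifiers, each counting 1 captured transcript), with 3282 to 7156 cells in the male libraries and 2121 to 4942 in the female ones. Male libraries are those numbered 1, 3 and 4, and female libraries those numbered 2, 5 and 6. The 4 Y-linked genes looked at summed to at most 0.164 CPM in any cluster of a female library, so the sexes fit their labels. Cluster 9 had 1276 cells, 916 male and 360 female, and 93 to 382 per library. The summed level of 5 markers of CD8 T cells was 2944 to 5421 CPM (UMIs per 1000000 UMIs of the summed cells) in the libraries of cluster 9. The 14 myeloid markers summed to 23.0 to 38.7 CPM there, with Adgre1 and Cd163 at 0, and the 8 markers of plasmacytoid dendritic cells summed to 17.7 to 31.8 CPM, with Siglech among 4 at 0. Barcodes shared between libraries numbered 84, in 169 cells.

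Cluster 9 carried the programme. Its cells were 4.78% of all cells and gave 3.18% of all UMIs, and they held 16.6% of the members' UMIs. The summed level of the 35 members was 8421 ± 928 CPM in cluster 9 (SD, n = 6 libraries). It was 2573 ± 233 CPM in cluster 1, the next, whose leading genes included the granzyme gene Gzmm. It was lowest at 947 ± 118 CPM in cluster 6. The library with the lowest sum in cluster 9, male library 1 at 7467 CPM, stood above the highest value of any other cluster, 2876 CPM in cluster 1 of female library 6. The clusters were made by the authors from these same cells, so the contrast between clusters describes how the cells were sorted into groups and has no test.

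Each of the 35 members had its highest mean level in cluster 9, where 3.58% of the 12194 genes tested had theirs. Since the list was drawn up with earlier results of these data known, this is a description. Within single libraries this held in all 6 for every member but Ifi44. That gene had 70 UMIs in the whole table and stood at 2.27 CPM in cluster 10 and 1.80 CPM in cluster 9 of male library 1. What differed between members was the step from cluster 9 down to the next cluster. The ratio of mean CPM had a median of 3.29 and ran between 18.1 for Ifit1 and 1.42 for Irf9. It was 5 or more for 8 members, between 3 and 5 for 14, between 2 and 3 for 10, and under 2 for Parp14, Stat2 and Irf9. Most often the next cluster was cluster 1 (17 members), followed by cluster 10 (8 members), whose cells had a median of 1461 UMIs against 6246.5 in cluster 9.

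**Figure D1:**
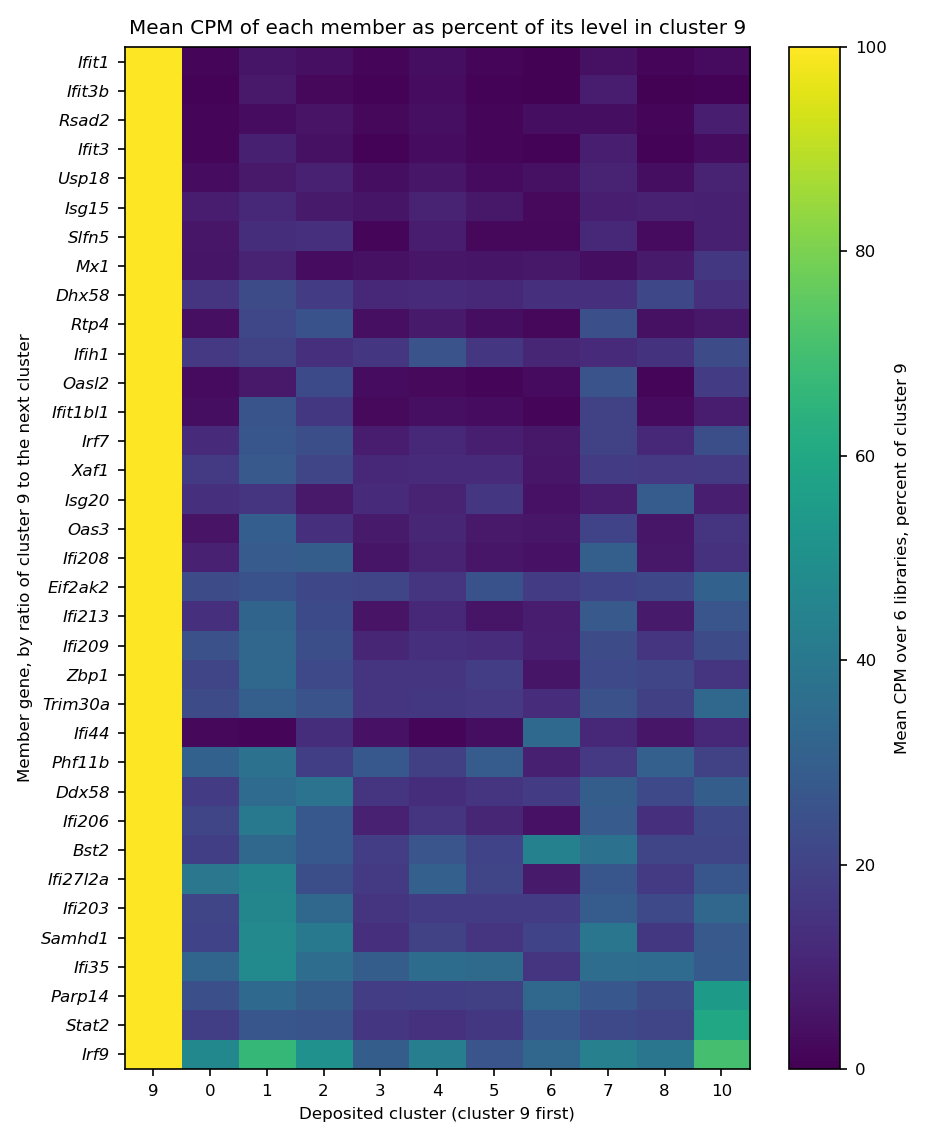
Mean CPM over 6 libraries of each member (rows, ordered by the ratio of cluster 9 to the next cluster) in each deposited cluster (columns), as percent of its level in cluster 9. The rows at the top, Ifit1 to Mx1, are dark outside cluster 9, whereas Parp14, Stat2 and Irf9 at the bottom keep a sizeable level in cluster 10, and Irf9 in cluster 1 too.

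Members were called confined to cluster 9 where at least 50% of their UMIs lay there and their CPM was at least 5 times that of every other cluster in each library. By this rule 4 of 35 were confined: Ifit1, Ifit3, Ifit3b and Rsad2, all effectors. Over the 12194 genes tested these same 4 were the only ones that met it, 0.0328%. IFIT proteins bind foreign RNA and hold back its translation, and Rsad2 encodes viperin, which makes a chain-terminating nucleotide.

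Ifit1 stood at 370, 523 and 400 CPM in cluster 9 of male libraries 1, 3 and 4, and at 391, 357 and 503 CPM in female libraries 2, 5 and 6. Its next highest level was in cluster 1, at 23.4 ± 6.51 CPM (SD, n = 6), and cluster 9 held 60.1% of its 6520 UMIs. In every library cluster 9 was at least 13.3 times any other cluster. Ifit3 stood at 367, 539 and 432 CPM in cluster 9 of the male libraries, and at 294, 197 and 332 CPM in the female ones. Clusters 1 and 7 came next for Ifit3, at 32.3 and 30.6 CPM, and cluster 9 held 57.5% of its UMIs. The leading genes of cluster 7 included Igfbp4, Dapl1 and Tcf7, the last a transcription factor of resting and memory T cells.

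Ifit3b stood at 78.3, 109 and 89.8 CPM in cluster 9 of the male libraries, and at 53.0, 43.2 and 62.9 CPM in the female ones. The cluster held 63.2% of its UMIs, the highest share of any member, and cluster 7 came next at 5.70 ± 1.53 CPM. Ifit3 and Ifit3b are neighbouring genes on chromosome 19, and their transcripts in GENCODE M21 were 98.0% identical over 1697 aligned bases. Of the 50-base words in the last 500 bases of Ifit3, 14.9% also occurred in Ifit3b. Of those of Ifit3b, 1.77% occurred in any other gene. Counts of the pair are uncertain to that extent, and the results for them may not be independent, which was not tested. Rsad2 stood at 158, 267 and 189 CPM in cluster 9 of the male libraries, and at 97.2, 136 and 199 CPM in the female ones. Its next cluster was cluster 10 at 14.9 ± 14.1 CPM, where 28 UMIs in all were counted. Rsad2 was the member just inside the rule, with a lowest ratio of 5.10 in a library.

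Usp18 and Isg15 had the next highest ratios of mean CPM, 10.1 and 9.04, but fell outside the rule. ISG15 is a ubiquitin-like protein that is joined to other proteins, and USP18 removes it and also dampens signalling at the type I receptor. Usp18 averaged 131 ± 19.4 CPM in cluster 9, with 41.5% of its UMIs there and a lowest ratio of 4.91 in a library. Isg15 averaged 445 ± 88.2 CPM in cluster 9 and 49.2 ± 8.19 CPM in cluster 1 (SD, n = 6 libraries each). It was at least 6.43 times any other cluster in every library, yet cluster 9 held 30.04% of its 13550 UMIs, since it was counted at 12.01 to 49.2 CPM in all of the others. With a ratio of 10 in place of 5 the rule kept Ifit1 alone. With the mean of the CPM of single cells in place of the CPM of summed cells it kept 3 members, without Rsad2, whose lowest ratio in a library was then 3.26. With no rule on the share of UMIs it kept 5 members.

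Further effectors formed a middle range. Slfn5, of the Schlafen family, and Mx1 had ratios of 7.23 and 6.23. Rtp4, Oasl2, Ifit1bl1, Xaf1, Isg20, Oas3 and Eif2ak2 had ratios of 3.95 to 3.24. Oas3 makes the messenger that activates RNase L, Eif2ak2 encodes the RNA-dependent kinase PKR, and Isg20 encodes an RNA exonuclease. For Oasl2 the ratio in a library was highest at 4.73 in male library 3 and lowest at 1.67 in female library 6. Its next cluster was cluster 7, at 13.1 ± 6.23 CPM. Isg20 was the 1 member whose next cluster was cluster 8, at 41.7 ± 9.83 CPM.

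The sensors of cytosolic RNA, Dhx58, Ifih1 and Ddx58, which encode LGP2, MDA5 and RIG-I, had ratios of 4.40, 3.91 and 2.62. The 5 genes of the p200 family on chromosome 1, whose products bind DNA in the nucleus or cytosol, lay close together. Their ratios were 3.29 for Ifi208, 3.11 for Ifi213, 3.03 for Ifi209, 2.47 for Ifi206 and 2.18 for Ifi203. They shared 3′ words with each other or with relatives (63.4% of the words of Ifi209 occurred in Ifi214, and 26.0% of those of Ifi206 in Gm18752), so single p200 levels are uncertain. The same holds for Phf11b, with 42.6% of its words in other Phf11 genes.

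Of the 3 transcription factors, Stat2 and Irf9 had the lowest ratios of all members, at 1.67 and 1.42, while Irf7 stood above the members' median at 3.74. Irf7, the factor that amplifies interferon production, averaged 170 ± 35.3 CPM in cluster 9 and 45.5 ± 7.92 CPM in cluster 1. Stat2 averaged 78.5 ± 14.8 CPM in cluster 9 and 47.0 ± 13.3 CPM in cluster 10, and its next level after these was 21.4 CPM in cluster 6. Cells of clusters 10 and 6 had medians of 1461 and 1742 UMIs, and the leading genes of both included the mitochondrial mt-Co3 and mt-Nd2. The low ratios of Stat2 and Parp14 thus rest on cluster 10, as the level of Parp14 after it was 74.7 CPM in cluster 1. Irf9 averaged 115 ± 7.43 CPM in cluster 9, 81.0 ± 18.2 CPM in cluster 10 and 76.7 ± 3.05 CPM in cluster 1. Its lowest ratio in a library was 1.05, and cluster 9 held 7.59% of its UMIs, the smallest share of any member. Samhd1, which breaks down deoxynucleotides, and Ifi27l2a, Bst2 (tetherin), Ifi35, Zbp1, Trim30a, Phf11b and Parp14 had ratios of 3.01 to 1.84. Like every member of the list, they were counted in every cluster. Ifi35 averaged 136 ± 13.99 CPM in cluster 9 and 64.8 ± 4.46 CPM in cluster 1, and Parp14 averaged 218 ± 31.7 CPM in cluster 9 and 118 ± 26.3 CPM in cluster 10.

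**Figure D2:**
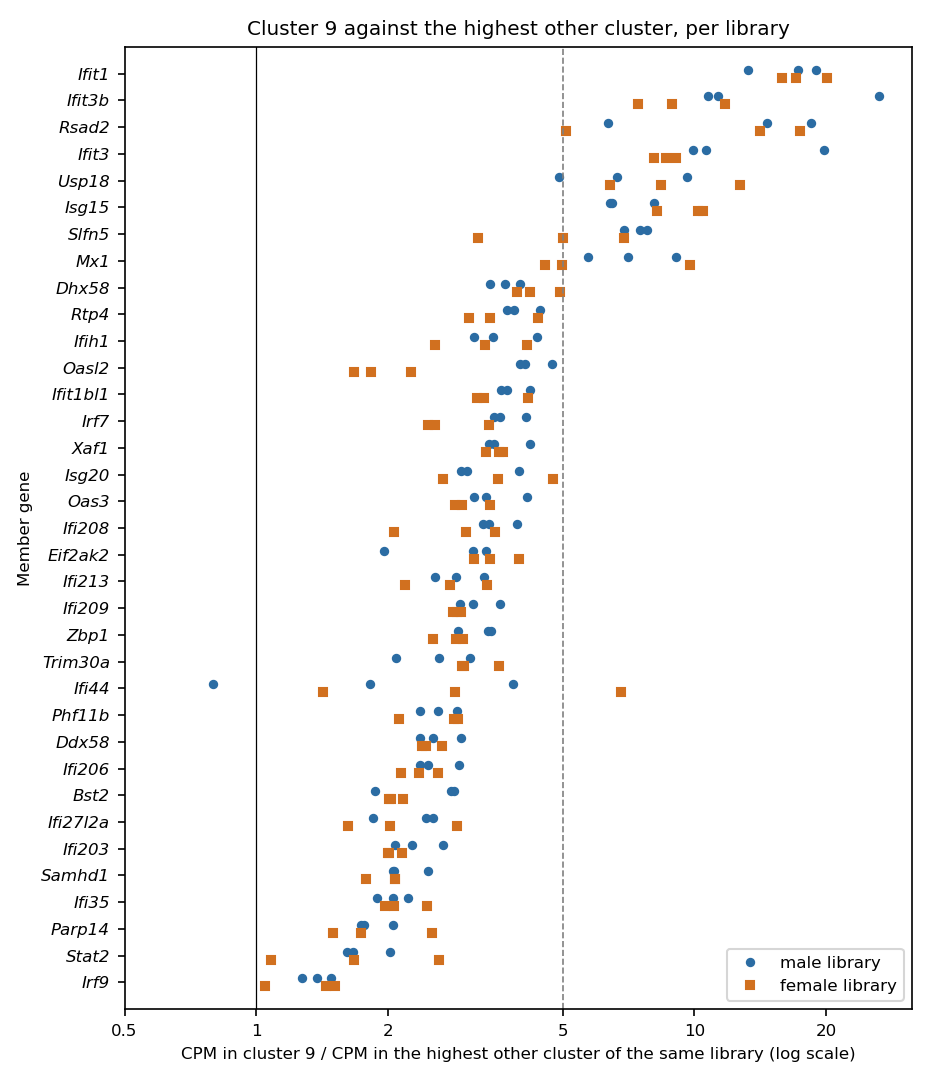
CPM in cluster 9 divided by the highest CPM of any other cluster of the same library, on a log scale, for each member and each of 3 male (circles) and 3 female (squares) libraries, with the dashed line at 5. All 6 libraries of Ifit1, Ifit3b, Rsad2, Ifit3 and Isg15 lie beyond 5, those of Irf9 lie between 1.05 and 1.51, and 1 library of Ifi44 lies below 1.

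To compare cells at one depth, every cell was thinned to 2000 UMIs and shallower cells were left out, which kept 1246 of 1276 cells in cluster 9 but 294 of 1137 in cluster 10 and 785 of 2034 in cluster 6. The median cell of cluster 9 had a UMI of 10 members. Medians elsewhere were 1 to 3. In cluster 9, 58.5% of cells had 10 or more, against 2.20% in cluster 1 and 0 to 1.36% in the others. Of the 1246 cells of cluster 9, 1 had none. The mean number in cluster 9 was 10.2, 12.3 and 11.6 in male libraries 1, 3 and 4, and 9.61, 9.95 and 11.98 in female libraries 2, 5 and 6. The sexes overlapped there, and female library 6 lay within the male range. No cell type of the sort is known to lack these transcripts, so no background share from free RNA could be set.

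**Figure D3:**
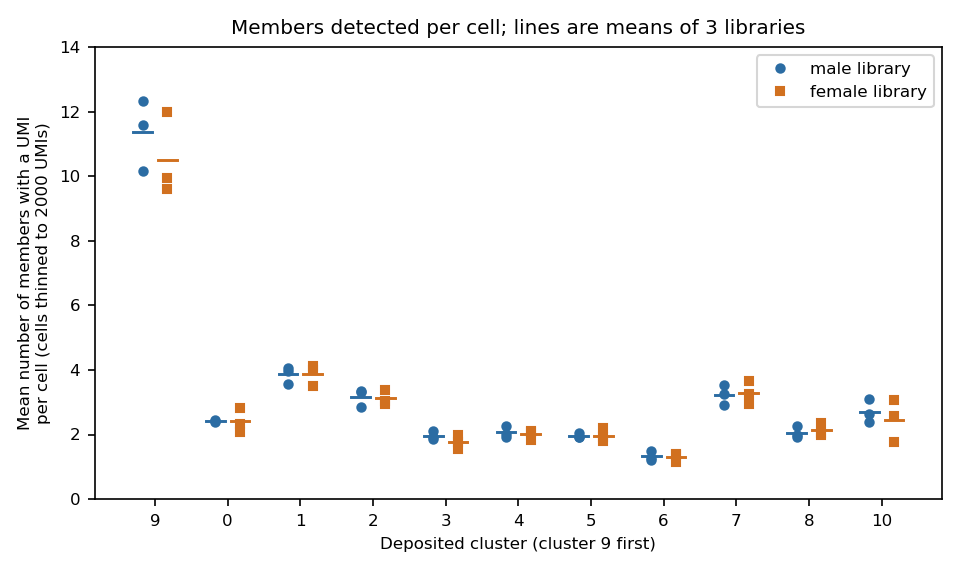
Mean number of the 35 members with at least 1 UMI per cell, in cells thinned to 2000 UMIs, for each cluster and library (circles, male; squares, female; lines, mean of 3 libraries). Cluster 9 lies at 9.61 to 12.3 in the 6 libraries, and no library of another cluster exceeds 4.12.

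A few cells with a high count lay outside cluster 9. Outside clusters 2 and 9, cells with 10 or more members made up 0.556%, 1.86% and 1.25% of male libraries 1, 3 and 4, and 0.298%, 0.730% and 1.07% of female libraries 2, 5 and 6. The sexes overlapped in this share. Confined genes were found together in some of the cells outside the cluster. Of 347 such cells with an Ifit1 UMI at 2000 UMIs, 16.1% also had an Ifit3 UMI, against 1.95% of the 19651 cells with no Ifit1 UMI. For Isg15 the shares were 21.9% and 6.11%, and for Irf9 19.3% and 9.67%. The share with Ifit3 was 5.71% to 22.6% over libraries where Ifit1 was present and 0.688% to 3.05% where it was absent. These shares pool clusters with different levels of the members. Within cluster 1 alone, Ifit3 was found in 18.9% of 132 cells with Ifit1 and 5.29% of 3367 without. There the shares were 20.5% and 8.73% for Isg15, and 25.8% and 14.3% for Irf9. Within cluster 9, Ifit3 was found in 60.6% of 591 cells with Ifit1 and 38.0% of 655 without. Doublets were not removed, and their part in these shares was not tested.

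The sexes were then compared, with male minus female fold changes and 3 libraries per sex. Over all cells outside cluster 2, whose leading genes are those of natural killer cells, no member passed the edgeR quasi-likelihood test at an adjusted p under 0.05. Of the 12194 genes tested 11 passed, 0.0902%, and these include Xist and Y-linked genes. At an unadjusted p under 0.05, 11 of 34 members tested were higher in males and 0 lower, against 5.36% and 3.01% of all genes. DESeq2 called 2 members, and 1.12% of genes. Limma-voom called 0 members, with 5 of all genes called higher and 6 lower in males. The members leaned one way: 32 of 34 had a positive log2 fold change, with a median of 0.23, against 51.2% positive and a median of 0.0042 over all genes.

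The order of the members by p began with Ifit3b. It stood at 4.35, 7.53 and 5.51 CPM in male libraries 1, 3 and 4, and at 2.17, 1.65 and 3.02 CPM in female libraries 2, 5 and 6. The groups did not overlap (log2 fold change 1.39, SE 0.26, edgeR adjusted p = 0.145). Ifit3 stood at 23.1, 38.5 and 27.3 CPM in the male libraries, and at 12.2, 8.71 and 18.9 CPM in the female ones (1.20, SE 0.31, edgeR adjusted p = 0.352). Samhd1 stood at 176, 161 and 154 CPM in the male libraries, and at 125, 135 and 148 CPM in the female ones, again with no overlap but a log2 fold change of 0.27 (edgeR adjusted p = 0.352). Next came Rtp4 (log2 fold change 0.66), Usp18 (0.60) and Ifit1bl1 (0.92), at edgeR adjusted p of 0.397, 0.397 and 0.398. Both of the members with a negative value, Isg20 (-0.21) and Ifi27l2a (-0.19), overlapped between the sexes.

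In 8 of 34 members every male library stood above every female one, as in 7.04% of all genes tested, and in 0 members every male library stood below, as in 6.09%. The other 26 overlapped. Male library 3 and female library 6 were the high libraries of their sex. The summed members stood at 1612, 1864 and 1624 CPM in male libraries 1, 3 and 4, and at 1439, 1432 and 1717 CPM in female libraries 2, 5 and 6. Female library 6 thus lay above male libraries 1 and 4. Without male library 3 the members' median log2 fold change was 0.12, and without female library 6 it was 0.34, with Ifit1bl1 called. In that last setting 7 genes of 12472 were called higher and 5 lower in males.

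The share of cluster 9 is part of this sum. It made up 5.31%, 6.06% and 5.34% of cells in male libraries 1, 3 and 4, and 3.77%, 3.20% and 4.39% in female libraries 2, 5 and 6. The groups did not overlap (two-sided exact permutation test, p = 0.10, the smallest that 3 against 3 libraries allow). By edgeR on cell counts, the log2 ratio of male to female share was 0.57 for cluster 9 (edgeR adjusted p = 0.073). It was higher for cluster 7, at 1.17 (edgeR adjusted p = 0.0169), and cluster 2, at 0.98 (edgeR adjusted p = 0.0671). Cluster 1 had 0.40, and clusters 0, 3, 4, 5, 6, 8 and 10 had negative values. Of the members' UMIs outside cluster 2, cluster 9 gave 19.9%, 24.1% and 18.8% in the male libraries and 12.4%, 13.3% and 19.3% in the female ones. With every library set to the same mix of clusters, the members' median log2 fold change was 0.064, and 27 of 34 were positive. At an unadjusted p under 0.05 there were then 3 members, against 11 in the main test. Of all 12194 genes, 444 were then higher and 390 lower in males, against 653 and 367. That step was fitted with limma on log2 of CPM plus 1, not with edgeR on counts. The numbers with and without it are therefore not like for like. Sums over all cells cannot tell a larger cluster 9 from more transcripts per cell, which is why the cells inside and outside it were tested apart.

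Outside clusters 2 and 9 no member was called by edgeR, among 12152 genes of which 0.0905% were. DESeq2 called 2, Ifit3 and Ifit1bl1, and 0.839% of genes. Limma-voom called 0 members, with 5 of all genes called higher and 6 lower in males. There were 9 members at an unadjusted p under 0.05, all higher in males, against 4.51% of all genes higher and 2.96% lower. The median log2 fold change was 0.14, and 31 of 34 were positive, against 49.2% of genes. This set still pools clusters whose shares of cells differed between the sexes. Cluster 7, with summed members at 1909 ± 214 CPM, had a log2 ratio of male to female share of 1.17. Cluster 3, at 997 ± 67.0 CPM, had one of -0.46. The mix was not held equal in this fit, and its part in the lean was not tested. In 7 members every male library stood above every female one, as in 6.68% of genes, and in 0 every male library stood below, as in 5.3%. Ifit1bl1, a relative of Ifit1, stood at 8.43, 8.29 and 7.06 CPM in male libraries 1, 3 and 4, and at 3.26, 3.83 and 6.05 CPM in female libraries 2, 5 and 6. Its groups did not overlap (log2 fold change 0.88, SE 0.19, edgeR adjusted p = 0.233). Ifit3b, Ifit3, Rtp4, Samhd1 and Ifi213 followed, at log2 fold changes of 1.37, 1.08, 0.59, 0.22 and 0.29 (edgeR adjusted p of 0.358 to 0.587). Isg20 (-0.29), Ifi27l2a (-0.25) and Ifih1 (-0.09) were the members with negative values.

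Within cluster 9, 2 of 34 members tested were called, both higher in males, where 3.41% of 8030 genes were called (1.12% higher and 2.29% lower in males). They were Ifit3b and Ifit3, whose values in that cluster are given above. Ifit3b averaged 92.4 ± 15.6 CPM in males and 53.0 ± 9.86 CPM in females (SD, n = 3 each; log2 fold change 0.89, SE 0.18, edgeR adjusted p = 0.00282). Ifit3 averaged 446 ± 87.0 CPM in males and 274 ± 69.6 CPM in females (SD, n = 3 each; 0.78, SE 0.18, edgeR adjusted p = 0.0316). The groups did not overlap for either gene. Without female library 5, the lowest for both, neither was called, and without male library 3 Ifit3b alone was. Of all genes, 17 were then called higher and 53 lower in males of 8416, and 46 higher and 109 lower of 8135. Without female library 6, 5 members were called: Ifit3, Ifit3b, Ifit1bl1, Oas3 and Slfn5. Calls over all genes rose as well, to 142 higher and 240 lower in males of 8343, from 90 and 184 of 8030. Since Ifit3 and Ifit3b share sequence, their calls may not be separate observations.

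Their relative Ifit1 was not called. It averaged 431 ± 80.9 CPM in males and 417 ± 76.2 CPM in females within cluster 9 (SD, n = 3 each), and the libraries overlapped (log2 fold change 0.12, SE 0.15, edgeR adjusted p = 0.769). Rsad2 averaged 205 ± 56.1 CPM in males and 144 ± 51.4 CPM in females, also with overlap (0.58, SE 0.28, edgeR adjusted p = 0.377). Isg15 averaged 437 ± 126 CPM in males and 453 ± 58.2 CPM in females (0.02, edgeR adjusted p = 0.976). The fold change is fitted with TMM scaling and the CPM is not, so the signs can differ, as they do for Isg15. So 2 of the 4 confined genes passed the test within the cluster.

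Bst2 and Oasl2 came next by p. Bst2 stood at 411, 479 and 463 CPM in cluster 9 of male libraries 1, 3 and 4, and at 339, 377 and 375 CPM in female libraries 2, 5 and 6 (log2 fold change 0.37, SE 0.13, edgeR adjusted p = 0.110). Oasl2 stood at 55.8, 89.5 and 55.6 CPM in the male libraries, and at 36.5, 19.6 and 48.9 CPM in the female ones (1.07, SE 0.33, edgeR adjusted p = 0.129). Neither pair of groups overlapped, and DESeq2, which called 2.34% of genes, called Oasl2. Irf7 (0.40) and Slfn5 (0.55) had edgeR adjusted p of 0.167 and 0.229. Negative log2 fold changes were those of Isg20 (-0.37), Ifi27l2a (-0.17), Dhx58 (-0.08), Parp14 (-0.05), Phf11b (-0.04), Mx1 (-0.03) and Ifi35 (-0.0017), and none was called. At an unadjusted p under 0.05, 8 members were higher in males and 1 lower, against 7.66% and 8.82% of genes. In all, 27 of 34 were positive with a median of 0.11, against 50.7% of genes, and in 4 members every male library stood above every female one, as in 6.66% of genes tested. In 0 every male library stood below, as in 13.5%. With library size alone in place of TMM scaling, 20 were positive. By mean CPM, 15 of 34 were lower in males, and 8 of these had a positive fitted fold change, Isg15, Irf9, Ifi209, Ifi213, Trim30a, Xaf1, Ifih1 and Eif2ak2.

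**Figure D4:**
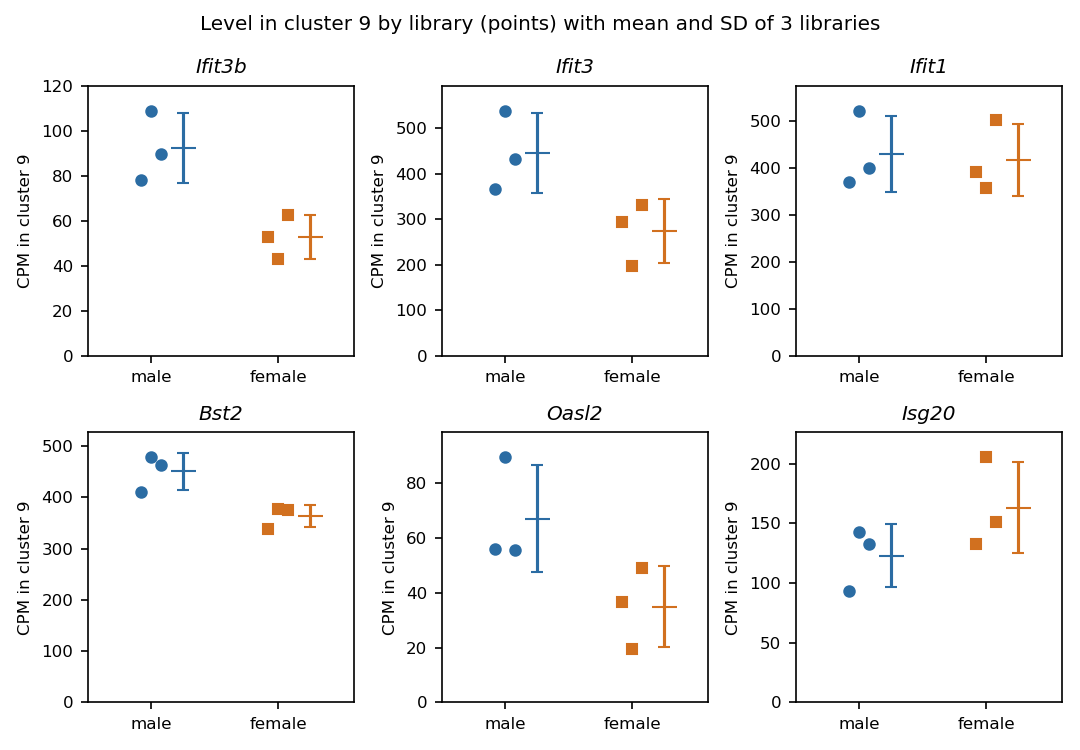
CPM in cluster 9 of 6 members in each library (circles, male; squares, female) with the mean and SD of 3 libraries beside them. Ifit3b, Ifit3, Bst2 and Oasl2 do not overlap between the sexes, while Ifit1 and Isg20 do.

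Cluster 9 differed between the sexes in other genes too. The 10 exhaustion markers summed to 1022 to 1595 CPM in its male libraries and 2374 to 3231 CPM in its female ones. The 12 effector markers summed to 3859 to 5862 CPM in males and 9505 to 12037 CPM in females, and the 10 markers of naive or central memory cells to 1780 to 2462 CPM in males and 1028 to 1645 CPM in females. No marker of these lists was at 0. None of these ranges overlap, and their part in the members' differences was not tested.

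In a model with both parts of each library, no member's sex effect in cluster 9 was called as different from its effect in the other cells, among 11289 genes of which 2.74% were. DESeq2 and limma-voom called 0 members as well, and DESeq2 1.29% of genes. Of all genes, limma-voom called 79 with a larger and 101 with a smaller difference in cluster 9. The difference was positive for 15 of 35 members and 54.5% of genes. At an unadjusted p under 0.05 there was 1 member with a larger male minus female difference in cluster 9, Bst2 (0.26, edgeR adjusted p = 0.111), against 6.35% of genes. Another 3 had a smaller one, Ifit1 (-0.30, edgeR adjusted p = 0.128), Ifit3 (-0.26) and Rtp4 (-0.25), against 5.64%. Oasl2 had a difference of 0.49 (SE 0.26, edgeR adjusted p = 0.459). Without male library 1, Ifit1 alone of the members was called. Of 11508 genes, 29 were then called with a larger and 98 with a smaller difference in cluster 9. The call of Ifit3 and Ifit3b within cluster 9 is therefore not shown to be particular to that cluster.

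**Figure D5:**
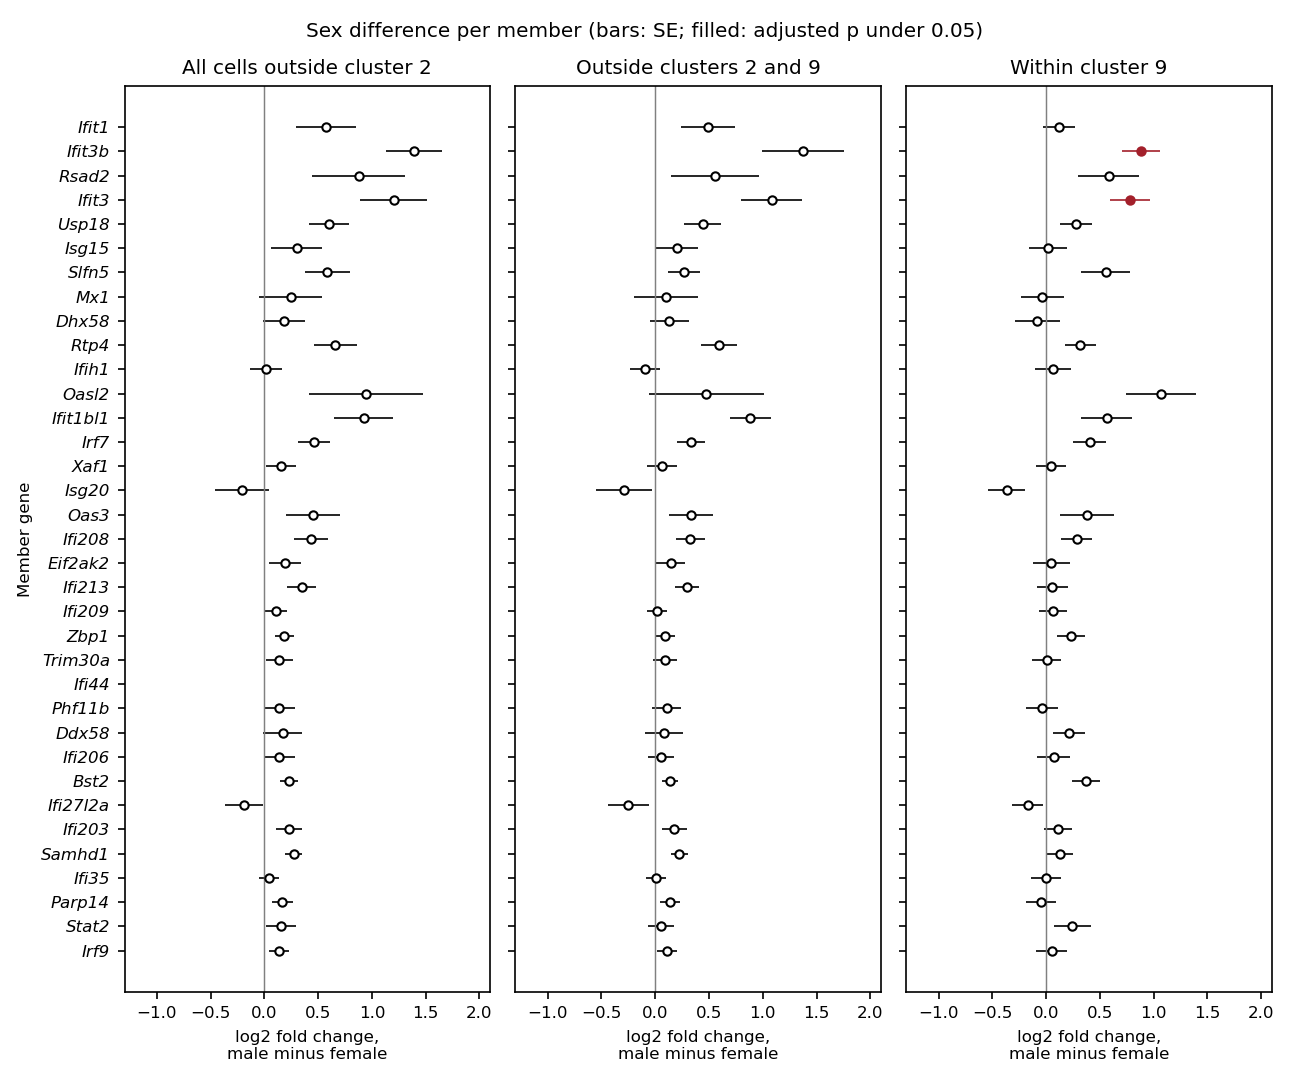
Log2 fold change, male minus female, with SE for each member over all cells outside cluster 2, outside clusters 2 and 9, and within cluster 9; filled points have an edgeR adjusted p under 0.05. Most points lie to the right of 0, with 32, 31 and 27 of 34 positive, and Ifit3b and Ifit3 within cluster 9 are the filled ones. Ifi44 was not tested here.

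Each other cluster was tested alone, with 15 to 34 members past the filter on low counts. No member was called by edgeR or DESeq2 in any of these 10 clusters, where 0.0968% to 3.8% of genes were called by edgeR. In cluster 1, which had the highest edgeR share, DESeq2 called 110 genes higher and 160 lower in males of 9234. The edgeR shares were 0.139%, 3.8%, 0.358%, 0.142%, 0.105%, 0.0979%, 0.181%, 0.168%, 0.0968% and 0.274% in clusters 0 to 8 and 10. At an unadjusted p under 0.05 there were 0 to 5 members higher in males and 0 to 3 lower in a cluster. For all genes the shares higher in males were 2.44%, 7.97%, 2.93%, 2.83%, 2.35%, 2.27%, 1.84%, 3.14%, 1.73% and 2.27% in those clusters, and the shares lower were 2.17%, 9.28%, 3.53%, 2.65%, 2.19%, 1.71%, 2.91%, 3.75%, 1.62% and 3.14%. Without female library 6, Ifit1bl1 was called in cluster 1 and Ifi27l2a in cluster 7, and without male library 1, Ifit3b was called in cluster 1. Of all genes in cluster 1, 267 were then called higher and 443 lower of 9663, and 48 higher and 73 lower of 9130. For cluster 7 the calls over all genes in that setting are not given here, so the call of Ifi27l2a stands without them. Ifit3 had an unadjusted p under 0.05 in clusters 0, 3, 5 and 8, at log2 fold changes of 0.89, 1.06, 1.09 and 1.5. Ifit1bl1 had one in clusters 0, 1, 3 and 5, at 1.03, 0.59, 0.73 and 0.65. In cluster 7 the members that reached it in the other direction were Ifi27l2a (-0.47), Ifi209 (-0.33) and Slfn5 (-0.67), beside Parp14 at 0.31, and in cluster 10 it was Irf7 (-0.83). In clusters 5, 8 and 10 the members' median was below 0, at -0.0037, -0.04 and -0.15, but without female library 6 it was 0.14, 0.11 and 0.09. It was also above 0 without male library 1 in clusters 5 and 8, without male library 4 in clusters 5, 8 and 10, and without female library 5 in cluster 5. In clusters 3, 4 and 6 the median was above 0, but it was -0.02 and -0.01 in clusters 3 and 4 without male library 3, and -0.06 in cluster 6 without female library 2.

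Other genes of the pathway were set beside the 3.58% of genes tested that were highest in cluster 9. Of the 9 receptor and kinase genes, 0 were highest in cluster 9. Ifnar1 and Ifngr1 were highest in cluster 6, at 122 ± 18.0 and 1466 ± 145 CPM, against 81.4 ± 11.7 and 816 ± 59.0 CPM in cluster 9 (SD, n = 6). Cells of cluster 6 had a median of 1742 UMIs, and mitochondrial genes were among its leading genes. Ifnar2 stood at 62.6 ± 13.9 CPM in cluster 9 and 76.2 ± 9.43 CPM in cluster 2, its highest. Ifngr2 had 441 UMIs in all and was highest in cluster 7, at 11.6 ± 2.49 CPM.

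Of 12 signal transducers and interferon regulatory factors outside the members, 4 were highest in cluster 9. Among them Irf1, an interferon-induced transcription factor, averaged 298 ± 21.6 CPM there and 234 ± 21.9 CPM in cluster 1. Irf2 averaged 157 ± 8.25 CPM there and 132 ± 7.43 CPM in cluster 1, and Nmi averaged 99.6 ± 6.36 CPM there and 72.6 ± 6.96 CPM in cluster 1. The inhibitor Socs1 was the 1 of 13 negative regulators highest there, at 179 ± 31.8 CPM against 134 ± 22.5 CPM in cluster 7. Of 17 nucleic acid sensing genes 6 were, and of 66 other interferon-stimulated genes 51 were. The highest ratios among these were 10.8 for Cmpk2, the neighbour of Rsad2, 8.03 for the chemokine gene Cxcl10 and 5.72 for Ifit2.

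Ifng, the gene of type II interferon, was not high in cluster 9. It averaged 431 ± 455 CPM there and 4511 ± 1708 CPM in cluster 4, its highest, which also led with Il2 and Ccl4. In cluster 9 it stood at 64.8, 199 and 261 CPM in male libraries 1, 3 and 4, and at 1319, 475 and 267 CPM in female libraries 2, 5 and 6. The groups did not overlap, though female library 6 and male library 4 nearly met, female library 2 was by far the highest, and the test did not call it (log2 fold change -1.94, SE 0.88, edgeR adjusted p = 0.405). Of the 21 interferon genes listed, Ifng and Ifnz were matched in the table, Ifnz had 7 UMIs, and the others, Ifnb1 included, were not analysed here.

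Between the sexes over all cells outside cluster 2, no gene of these 6 lists was called. Irf1 stood at 143, 147 and 166 CPM in male libraries 1, 3 and 4, and at 114, 140 and 124 CPM in female libraries 2, 5 and 6. Irf1 and Ifnar2 did not overlap between the sexes, at log2 fold changes of 0.27 and 0.20 (edgeR adjusted p = 0.468 and 0.611), and the same was true of Nmi at 0.13. Over all genes, 7.04% had every male library above every female one. Ifngr2 had a log2 fold change of 1.59 on 358 UMIs (edgeR adjusted p = 0.463). Of the 63 other interferon-stimulated genes tested 49 were positive, with a median of 0.12.

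Within cluster 9, 7 of the 105 genes of these lists that were tested were called (6.67%, against 3.41% of all genes), at edgeR adjusted p of 0.00119 to 0.0384. They were 2 of 12 signal transducers and regulatory factors, 1 of 13 negative regulators and 4 of 58 other interferon-stimulated genes. Higher in males were Socs3, an inhibitor of cytokine signalling (142 ± 19.8 CPM in males and 74.4 ± 18.3 CPM in females, log2 fold change 1.03), Trim12a (0.66), Ms4a4c (0.65) and Ly6c2 (0.51). Lower in males were Irf8 (95.6 ± 12.4 CPM in males and 193 ± 60.4 CPM in females, -0.98), Irf4 (-0.86) and Ly6a (-0.52), with n = 3 libraries per sex and the SD given. Irf4 and Irf8 are interferon regulatory factors known in T cells for roles in activation and exhaustion, and Ly6c2 and Ly6a encode surface proteins of activated and memory T cells. Without male library 3, female library 5 or female library 6 the number of calls was 3, 4 or 11. Calls over all genes moved too, at 46, 17 or 142 higher and 109, 53 or 240 lower in males. The 7 called genes thus did not move in 1 direction. The summed level of the exhaustion markers in cluster 9, given above, was lower in every male library than in any female one. The part of these markers in the calls was not tested.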

How the data were processed

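Single-cell RNA was counted in 6 libraries of sorted CD8 T cells. Per the submitters' processing notes, Cell Ranger, Seurat and the genome build mm10 were used, with no version named. The authors deposited raw UMI counts per gene and cell together with the UMI total, sex and cluster of each cell. Per the file headers, the clusters come from an integrated assay. The UMI totals of all 26698 cells equalled the sums over genes. The library numbers in the cell names could be tied to a sex but not to a labelled replicate. Doublets were not called or removed.

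UMIs were added up within each library for 3 sets: cells other than those of cluster 2, cells other than those of clusters 2 and 9, and each cluster alone. CPM is UMIs per 1000000 of such a sum, and 3 libraries a sex limit the precision. Log2 fold changes, SE and p come from the edgeR 4.0.16 quasi-likelihood test with TMM scaling, filterByExpr and Benjamini-Hochberg adjustment over all genes tested (R 4.3.3). The difference in sex effect was fitted with the library as a block. DESeq2 1.42.0 and limma-voom (limma 3.58.1) were alternatives. The steps were tested on simulated data. Wild-type mice in separate libraries are taken as replicates. The p-values set each difference against the spread between these libraries, which is estimated with information shared over all genes. A very small p for 1 gene thus does not measure that gene's own spread alone. Transcript identity and shared 3′ words were computed from GENCODE transcripts.

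The members and lists were chosen with earlier results of these data known. Named with values were the confined members and the 4 with the lowest ratio, the called members with the 6 smallest p in each direction per comparison, upstream genes listed by name, of which 1 is not reported here, and every called gene of the pathway lists. The interferon genes of the lists other than Ifng and Ifnz are not analysed here.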

Additional observations from a re-analysis of the deposited data

Results flagged for a closer look

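In 3 genes of the wider interferon lists, none of them a member, the sex effect in cluster 9 differed from that in the other cells by the interaction test (edgeR, adjusted over 11289 genes). The spread in this test is estimated with information shared over all genes, so its p-values do not measure the spread of 1 gene alone. For Irf8 the difference was -0.85 on the log2 scale (SE 0.11, edgeR adjusted p = 2.96e-12). In cluster 9 it stood at 83.7, 94.7 and 109 CPM in male libraries 1, 3 and 4, and at 188, 256 and 135 CPM in female libraries 2, 5 and 6. For Irf4 the difference was -0.77 (SE 0.15, edgeR adjusted p = 4.76e-05), with 39.2, 36.4 and 48.8 CPM in cluster 9 of the male libraries and 96.1, 82.3 and 55.9 CPM in the female ones. For Ly6c2 it was 0.50 (SE 0.08, edgeR adjusted p = 2.18e-07), with 1491, 1463 and 1606 CPM in the male libraries and 864, 1260 and 1211 CPM in the female ones. None of the 3 overlapped between the sexes in cluster 9, and all overlapped over all cells outside cluster 2. Of 8030 genes in cluster 9, 6.66% had every male library above every female one, and 13.5% had every male library below. The 3 genes were picked by the interaction test, so this contrast follows in part from the choice. The summed levels of the exhaustion, effector and memory markers of cluster 9 differed between the sexes as well. The part of these markers in these values was not tested.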

How the results depend on the processing

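Of the values and counts the comparisons rest on, 97 stayed close under the alternatives and 22 moved. The members' median fold change kept its sign over all cells, outside cluster 9, within it and for the difference in sex effect, but within clusters 3, 4, 5, 6, 8 and 10 it turned with 1 library left out. Calls of members over all cells numbered 0, but 2 with DESeq2, 3 in cells thinned to 2000 UMIs and 0 to 1 with a library left out. In thinned cells, 44 of all 10185 genes were called higher and 21 lower in males, against 5 and 6 of 12194. Outside cluster 9 calls of members numbered 0, but 2 with DESeq2 and 1 in thinned cells. There, 28 of all 10139 genes were called higher and 15 lower in thinned cells, against 5 and 6 of 12152. Within cluster 9 calls of members numbered 2, but 6 with no filter on low counts and 0 to 5 with a library left out. With no filter, 200 of all 13236 genes were called higher and 306 lower there, against 90 and 184 of 8030. Calls over all genes there moved with the library left out too, as given above. For the difference in sex effect, calls of members numbered 0. They numbered 1 with library size alone, 1 with cluster 2 included and 0 to 1 with a library left out. Of all 11289 genes, library size alone called 25 with a larger and 328 with a smaller difference, against 102 and 207. With cluster 2 included these were 82 and 177 of 11324. In the other clusters calls of members numbered 0, but 3 with no filter, in cluster 1, and 0 to 2 with a library left out. With no filter, 316 of all 13922 genes of cluster 1 were called higher and 356 lower, against 148 and 203 of 9234. Confined members numbered 4, but 1 at 10 times and 3 with the mean of per-cell CPM. Members detected per cell in cluster 9 averaged 10.9, but 6.77 at 1000 UMIs and 17.8 at 5000 UMIs. Pathway genes called within cluster 9 numbered 7, but 12 with no filter and 3 to 11 with a library left out. Those pathway alternatives, and those for the level per cluster, were chosen after seeing the data. Over all genes, edgeR called 11 and DESeq2 136 over all cells, 11 and 102 outside cluster 9, and 309 and 146 for the difference in sex effect. The causes were not tested. No paired analysis was possible because the library numbers carry no replicate number of the labels. Low counts limit Ifi44, with 70 UMIs, and levels in clusters 6 and 10.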
